A study of Mus musculus with 8 samples.

Results

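Cathepsins are the proteases of the lysosome, and the genes described here are 35 cathepsin and lysosomal genes of the mouse, among them 11 cysteine and aspartic cathepsins, 3 other lysosomal peptidases, 7 glycosidases, 6 lipid-handling proteins, 5 membrane proteins, the transcription factor Tfeb, the autophagy receptor Sqstm1 and progranulin (Grn). They were chosen by name, and all 35 were measured, each by 1 probe set, among the 19935 genes named on the arrays. The 8 arrays (Affymetrix Mouse Gene 1.0 ST) measured expression in unsorted total mammary cell suspensions from FVB/NHanHsd mice, 4 of parous and 4 of age-matched virgin control mice, and each array held RNA of the fourth mammary glands pooled from 5 animals. The parous mice were mated at 42 days of age and lactated for 21 days, followed by involution for 28 days according to the labels or 40 days after weaning according to the methods. The virgin mice were of the same age and were not mated. No transgene or agent is given for either group. The labels call the samples total mammary epithelial cells, but the suspensions were only enriched: lymph nodes, adipocytes, red blood cells and part of the fibroblasts were removed, and markers of fibroblasts and of luminal epithelium were measured above the array median on every array (10 of 10 and 8 of 8 genes), as were 13 of 15 macrophage markers. The sources used here do not give the estrous stage of each pool.

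Lysosomes are acidic compartments in which proteins, glycans and lipids taken up by endocytosis, phagocytosis or autophagy are broken down. Most of their enzymes are tagged with mannose 6-phosphate, sorted to the compartment and, in the case of cathepsins, activated there by cleavage of a propeptide. Tfeb and its relatives of the MiT/TFE family bind an E-box element in the promoters of many of these genes and can raise them together. In the mouse mammary gland, the first days of involution are known for a STAT3-dependent leakage of lysosomes, in which cathepsins B and L reach the cytosol of dying alveolar cells, and macrophages then clear cell remains through their own lysosomes. The comparison asks whether the expression of these genes still differed between parous and virgin glands weeks after that process had ended.

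Of the 35 genes, Ctsk was higher in parous suspensions by the criteria of the methods (linear fold change over 1.5, adjusted p under 0.05, mean log2 value over 2) and none was lower. Over all 19935 genes, 0.181% were higher and 0.221% lower by these criteria. At an unadjusted p under 0.05 from limma, 4 of the 35 genes were higher (Ctsk, Lipa, Ctsc and Hexa) and 1 was lower (Man2b1), against 6.54% and 7.49% of all genes, and the arrays of the groups did not overlap for 2 genes on the higher side (Ctsk and Lipa) and for 1 on the lower side (Man2b1), against 4.61% and 4.95% of all genes. The median log2 fold change of the 35 genes was 0.05, with 25 above and 10 below 0 (3 of the 35 changed sign under another scaling of the arrays), beside a median of 0.00 over all genes and of -0.04 over the 8237 genes at least as bright as the dimmest of the 35. The 95% confidence interval lay within a 1.5-fold change in either direction for 28 of the 35 genes (80%), close to the 80.8% of all genes. In such bulk samples, more cells of a type and more RNA per cell cannot be told apart.

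**Figure D1:**
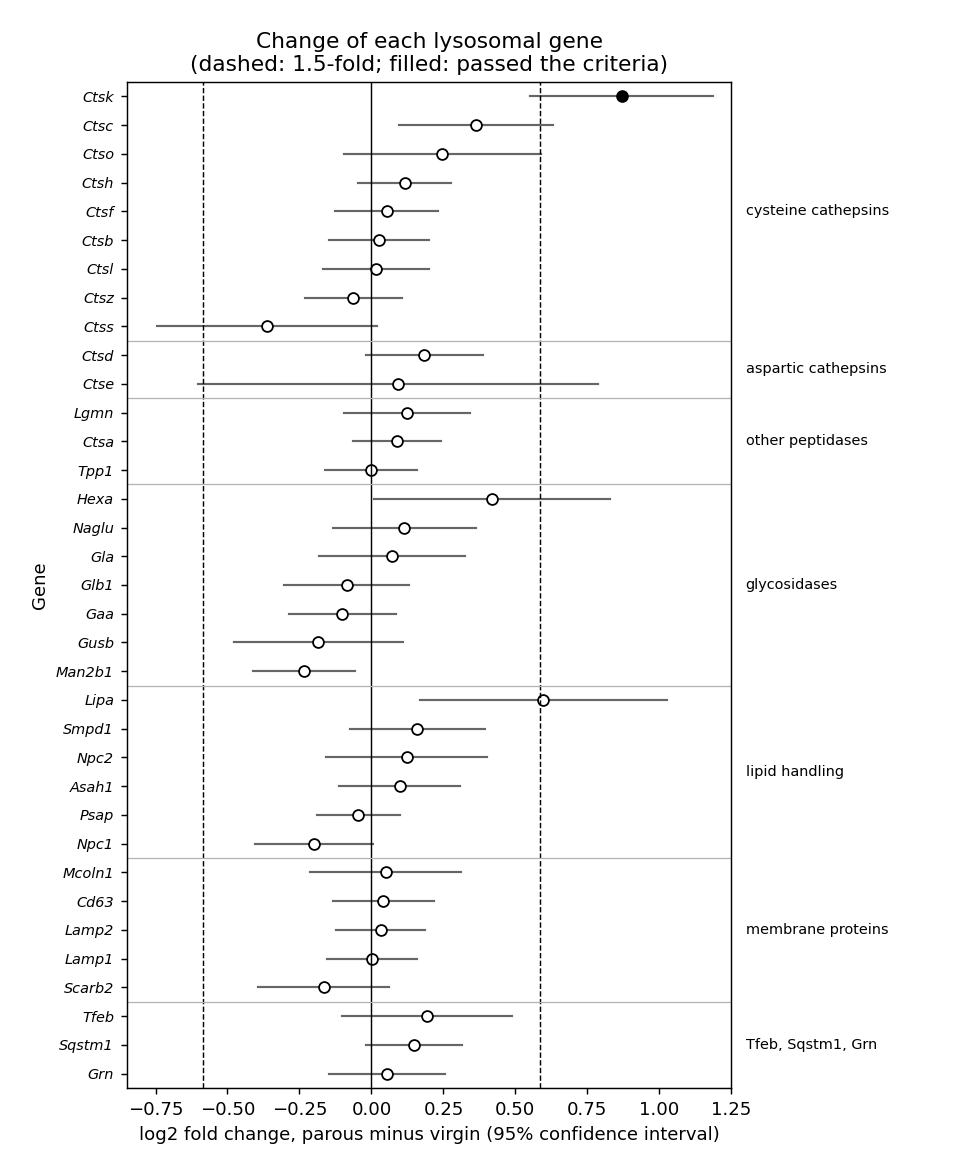
Log2 fold change, parous minus virgin, of each of the 35 genes (points) with its 95% confidence interval from limma (bars), grouped by role, n = 4 arrays per group. The filled point is Ctsk at 0.87, the gene that passed the criteria, and the dashed lines mark a 1.5-fold change.

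The RMA values are log2 intensities normalized between arrays, and levels are not compared between genes. All 35 genes were well measured, with every value at or above 7.70, whereas the median of all probe sets lay between 6.29 and 6.43 on the 8 arrays. Pearson correlations between arrays were 0.976 to 0.993 over all probe sets. On the first principal component the parous arrays lay between -25.8 and -12.7, virgin arrays 1 and 3 at -9.35 and -11.4, and virgin arrays 2 and 4 apart from the rest at 32.7 and 66.8. For a list of genes, the centred mean of an array is the mean of the listed genes after the 8-array mean of each gene was subtracted. For 14 proliferation genes it was -0.97 to -0.50 on the parous arrays, -0.26 and -0.22 on virgin arrays 1 and 3, and 1.28 and 1.86 on virgin arrays 2 and 4. Values without virgin arrays 2 and 4 are given beside many of the genes and lists. Those printed without such a value can also depend on these arrays.

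The cysteine cathepsins are papain-like proteases, and 9 were measured. Ctsk encodes cathepsin K, a collagen-degrading enzyme best known from osteoclasts and also made by connective tissue cells. It had log2 values of 9.02, 9.19, 9.34 and 9.64 on parous arrays 1 to 4, against 8.41, 8.23, 8.55 and 8.53 on virgin arrays 1 to 4. Every parous array was above every virgin array. The means were 9.30 ± 0.26 in parous and 8.43 ± 0.15 in virgin suspensions (SD, n = 4 arrays each), a 1.83-fold increase (log2 fold change 0.87, standard error 0.14, 95% confidence interval 0.55 to 1.19, limma adjusted p = 0.047). The exact 2-sided permutation test over the arrays gave p = 0.029, the smallest that 4 arrays against 4 allow. The call was close to the threshold. Leaving out any of the 8 arrays kept the log2 fold change between 0.76 and 0.96 but raised the adjusted p to between 0.055 and 0.169. Without virgin arrays 2 and 4 the change was 0.82 with an adjusted p of 0.224. With the replicate number as a block in the limma fit, the adjusted p was 0.073.

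Markers of fibroblasts moved in part with Ctsk. Of 10 fibroblast markers none passed the criteria and 8 had a log2 fold change above 0, with a median of 0.36 for the list. Of these, 5 were higher at an unadjusted p under 0.05, against 6.54% of all genes. The centred mean of the list was -0.12 to 0.56 on the parous arrays and -0.50 to 0.03 on the virgin arrays. Fbln1, a matrix glycoprotein, was at a log2 fold change of 1.01 (adjusted p = 0.092) and Dpt, dermatopontin, 0.93 (adjusted p = 0.198). The collagens Col1a1 (-0.21) and Col3a1 (-0.24), named after their values had been seen, were below 0, and the collagens Col1a2 and Col6a3 above it. Without virgin arrays 2 and 4, Fbln1 was at 0.98, Dpt at 0.59, Col1a1 at -0.08 and Col3a1 at -0.035. Col1a2 was then at 0.15 and Col6a3 at 0.13. Among the parous arrays, array 4 had the highest and array 1 the lowest value of both Ctsk and the fibroblast list, and in virgin suspensions array 2 was the lowest in both. Between the groups the order differed: the fibroblast mean of parous array 1 (-0.12) was below those of virgin arrays 3 and 4 (-0.02 and 0.03), while its Ctsk value was above theirs. Without virgin arrays 2 and 4 the median of the list was 0.21. The part of fibroblast content in the difference of Ctsk was not tested.

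Ctss lies next to Ctsk on chromosome 3, with 0 protein-coding genes between them in the RefSeq annotation, and had the largest decrease of the 35 genes. It encodes cathepsin S, which antigen-presenting cells use to process the invariant chain of MHC class II. Its log2 values were 9.41, 8.87, 9.09 and 9.50 on parous arrays 1 to 4, against 9.72, 9.75, 9.62 and 9.24 on virgin arrays 1 to 4. The groups overlapped through virgin array 4, which was below parous arrays 1 and 4. The log2 fold change of -0.36 (95% confidence interval -0.75 to 0.02) did not pass the test (limma adjusted p = 0.460).

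Among 11 markers of dendritic cells, which present antigen, the median log2 fold change was -0.22 and 7 were below 0. At an unadjusted p under 0.05, 1 was on the higher and 3 on the lower side, against 6.54% and 7.49% of all genes. Itgax (CD11c) was at -0.87 (adjusted p = 0.120) and Cd209a at 0.86 (adjusted p = 0.207). Itgax was at -0.53 and Cd209a at 0.46 without virgin arrays 2 and 4. The invariant chain Cd74 (-0.23, adjusted p = 0.412) and the MHC class II genes H2-Ab1 (-0.40, adjusted p = 0.347) and H2-Eb1 (-0.24, adjusted p = 0.652), named after their values had been seen, were below 0 as Ctss was. Of the 11 markers, 4 were above 0. The centred mean of the dendritic cell list was -0.23 to 0.20 on the parous arrays and -0.21 to 0.43 on the virgin arrays. Its median was -0.36 without virgin arrays 2 and 4. The order of the virgin arrays differed from that of Ctss. Ctss was highest on virgin array 2 (9.75), where the dendritic mean was the lowest of the virgin arrays (-0.21). That mean was highest on virgin array 3 (0.43). Among 15 macrophage markers the median was 0.20 and 12 were above 0, with Mrc1 at 0.72 (adjusted p = 0.445) and Cd163 at 0.65 (adjusted p = 0.484), both receptors of tissue-resident macrophages. Both were low on virgin arrays 2 and 4, and without these arrays the log2 fold changes were 0.16 for Mrc1 and 0.09 for Cd163 and the median of the list was 0.06. The mean of the macrophage list ranged between -0.18 and 0.35 on the parous arrays and between -0.29 and 0.10 on the virgin arrays. None of these markers passed the criteria, and their part in the values of Ctss was not tested.

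**Figure D2:**
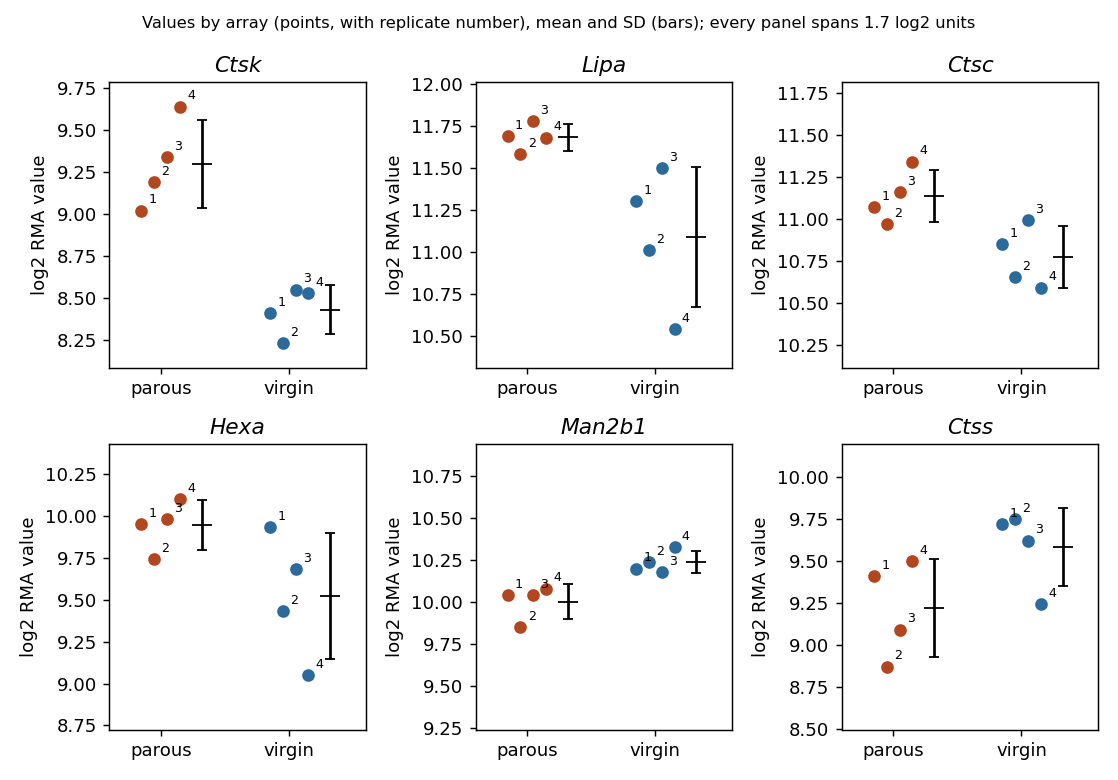
Log2 RMA values of 6 genes on each array (points labelled with the replicate number; bars, mean and SD, n = 4 arrays per group), with parous arrays at the left of each panel and every panel spanning the same range of log2 units. Parous and virgin arrays are separate for Ctsk and Lipa (parous higher) and for Man2b1 (parous lower), and they overlap for Ctsc, Hexa and Ctss.

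Ctsc, or dipeptidyl peptidase I, activates the serine proteases of immune cell granules. It had log2 values of 11.07, 10.97, 11.16 and 11.34 on parous arrays 1 to 4, against 10.85, 10.65, 10.99 and 10.59 on virgin arrays 1 to 4. The groups overlapped, since virgin array 3 was above parous array 2. The log2 fold change was 0.36 (standard error 0.12, limma adjusted p = 0.292), and 0.21 without virgin arrays 2 and 4. Ctso, a widely expressed cathepsin with few known substrates, had 9.79, 10.02, 10.07 and 9.97 on the parous arrays, against 9.96, 9.60, 9.97 and 9.34 on the virgin arrays. The groups overlapped, and its log2 fold change of 0.25 (adjusted p = 0.602) was -0.003 without virgin arrays 2 and 4.

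Ctsb and Ctsl, the cathepsins known from cell death in early involution, were at nearly the same level in both groups. Ctsb had log2 values of 12.33, 12.32, 12.33 and 12.40 on parous arrays 1 to 4, against 12.45, 12.32, 12.30 and 12.19 on virgin arrays 1 to 4. Ctsl had 12.04, 12.25, 12.21 and 12.13 on the parous arrays, against 12.20, 12.19, 12.17 and 12.00 on the virgin arrays. For both genes the parous arrays lay within or close to the range of the virgin arrays. The log2 fold changes were 0.03 (95% confidence interval -0.15 to 0.20) for Ctsb and 0.02 (-0.17 to 0.20) for Ctsl, so that the intervals leave out a 1.5-fold change in either direction. Of the remaining cysteine cathepsins, the aminopeptidase Ctsh had a log2 fold change of 0.12, Ctsf 0.05 and the carboxypeptidase Ctsz -0.06, all with an adjusted p of 0.599 or above.

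The aspartic cathepsins differ from these in using aspartate residues for catalysis. Ctsd encodes cathepsin D, the major aspartic protease of lysosomes. Its log2 values were 12.15, 12.05, 12.17 and 12.23 on parous arrays 1 to 4, against 12.08, 12.01, 12.01 and 11.76 on virgin arrays 1 to 4. Virgin array 1 was above parous array 2, and virgin array 4 was the lowest. The log2 fold change was 0.18 (95% confidence interval -0.02 to 0.39, adjusted p = 0.485), and 0.11 without virgin arrays 2 and 4. Ctse, an endosomal aspartic protease of immune cells and stomach, had the largest standard error of the 35 genes, through its spread between arrays. It is named here after its values had been seen (log2 fold change 0.09, standard error 0.30, and -0.36 without virgin arrays 2 and 4). It was high on parous array 1 (10.51) and virgin array 3 (10.54) and between 9.35 and 9.96 on the other arrays. The centred mean of 7 B cell markers was highest on the same arrays, at 1.07 on parous array 1 and 1.77 on virgin array 3, and lay between -0.94 and 0.24 on the others. T and NK cell markers (0.74 and 0.75) and dendritic cell markers (0.20 and 0.43) were highest on these arrays too. The part of such cells in the values of Ctse was not tested.

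Among the other peptidases, the asparaginyl endopeptidase Lgmn had a log2 fold change of 0.13, the carboxypeptidase Ctsa, which also protects lysosomal beta-galactosidase, 0.09, and the tripeptidyl peptidase Tpp1 0.00. Their intervals all lay within a 1.5-fold change, and Lgmn was at 0.05 without virgin arrays 2 and 4.

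The 7 glycosidases remove sugars from glycolipids, glycoproteins, glycosaminoglycans or glycogen, and they were split in direction, with 3 above and 4 below 0. Hexa, the alpha subunit of the hexosaminidase that degrades ganglioside GM2, had log2 values of 9.95, 9.74, 9.98 and 10.10 on parous arrays 1 to 4, against 9.93, 9.43, 9.68 and 9.05 on virgin arrays 1 to 4. The SD was 0.15 in parous and 0.37 in virgin suspensions, with virgin array 4 lowest and virgin array 1 above parous array 2. The log2 fold change of 0.42 (adjusted p = 0.427) was 0.14 without virgin arrays 2 and 4. Man2b1, the lysosomal alpha-mannosidase, had 10.04, 9.85, 10.04 and 10.08 on the parous arrays, against 10.20, 10.24, 10.18 and 10.33 on the virgin arrays. Every parous array was below every virgin array, although the difference was small (log2 fold change -0.23, 95% confidence interval -0.41 to -0.06, adjusted p = 0.303; exact permutation p = 0.029, the smallest possible).

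Gusb, the beta-glucuronidase often used as a reference gene, had log2 values of 8.20, 8.26, 8.56 and 8.52 on the parous arrays, against 8.33, 8.65, 8.49 and 8.81 on the virgin arrays. The groups overlapped widely (log2 fold change -0.18, adjusted p = 0.656), and the change was -0.02 without virgin arrays 2 and 4. The log2 fold changes of the other glycosidases were 0.11 for Naglu (heparan sulfate), 0.07 for Gla (alpha-galactosidase A), -0.09 for Glb1 (beta-galactosidase) and -0.10 for Gaa (glycogen), all with an adjusted p of 0.708 or above.

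Of the 6 lipid-handling proteins, Lipa differed most. It encodes lysosomal acid lipase, which hydrolyses cholesteryl esters and triglycerides. Its log2 values were 11.69, 11.58, 11.78 and 11.68 on parous arrays 1 to 4, against 11.30, 11.01, 11.50 and 10.54 on virgin arrays 1 to 4. All parous arrays lay within a narrow band above all virgin arrays, while the virgin arrays were widely spread (SD 0.08 in parous, 0.42 in virgin). The 1.51-fold difference (log2 fold change 0.60, 95% confidence interval 0.17 to 1.03) met the fold criterion but not the adjusted p (0.282). Without virgin arrays 2 and 4 the log2 fold change was 0.29 (adjusted p = 0.547).

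Npc1, the membrane protein that exports cholesterol from lysosomes, had log2 values of 10.01, 9.94, 9.99 and 10.03 on the parous arrays, against 10.26, 10.36, 9.99 and 10.15 on the virgin arrays. The parous arrays lay at the lower end, overlapping with virgin array 3 (log2 fold change -0.20, adjusted p = 0.449). Its soluble partner Npc2 had a log2 fold change of 0.12. The acid sphingomyelinase Smpd1 was at 0.16, the acid ceramidase Asah1 at 0.10 and the saposin precursor Psap at -0.04, and none of these passed the test. Without virgin arrays 2 and 4 these values were -0.04 for Npc2, 0.01 for Smpd1 and -0.04 for Asah1.

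The 5 membrane proteins differed little between the groups. Lamp1, an abundant glycoprotein of the lysosomal membrane, had log2 values of 11.53, 11.50, 11.63 and 11.63 on the parous arrays, against 11.61, 11.62, 11.56 and 11.51 on the virgin arrays. Lamp2, its relative, which is also needed for fusion with autophagosomes, had 11.50, 11.51, 11.51 and 11.48 on the parous arrays, against 11.58, 11.46, 11.44 and 11.40 on the virgin arrays. All of these values lay close together, with log2 fold changes of 0.00 (95% confidence interval -0.16 to 0.16) for Lamp1 and 0.03 (-0.12 to 0.19) for Lamp2. Scarb2, the receptor that carries glucocerebrosidase to lysosomes, had 10.14, 10.17, 10.18 and 10.19 on the parous arrays, against 10.58, 10.37, 10.26 and 10.13 on the virgin arrays. It was tightly grouped in parous suspensions and lower than in virgin arrays 1 to 3, but not lower than in virgin array 4 (log2 fold change -0.17, adjusted p = 0.595). The calcium channel Mcoln1 (0.05) and the tetraspanin Cd63 (0.04) did not pass the test, with intervals within a 1.5-fold change.

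Tfeb, the transcription factor that controls many lysosomal genes, had log2 values of 8.39, 8.37, 8.39 and 8.46 on parous arrays 1 to 4, against 8.25, 8.30, 8.46 and 7.82 on virgin arrays 1 to 4. Virgin array 4 was far below the rest, and the groups overlapped through virgin array 3. The log2 fold change was 0.19 (95% confidence interval -0.10 to 0.49, adjusted p = 0.641), and 0.04 without virgin arrays 2 and 4. Sqstm1, which links ubiquitinated cargo to autophagosomes and is itself degraded with it, was at 0.15 (adjusted p = 0.499), and Grn, the precursor of the granulin peptides, at 0.05 (adjusted p = 0.884).

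Part of the promoters of these genes hold the E-box that MiT/TFE factors bind. This element is already known from many lysosomal genes, although it was not used to choose these. RefSeq promoter windows of 300 bases (250 before and 50 after the transcription start, build GRCm38.p6) were given for 30 of the 35 genes. The E-box CACGTG, searched on both strands, occurred in 11 of the 30 (36.7%), against 8.09% of 27025 genes and 7.15% of all windows. Its longer form GTCACGTG, which contains CACGTG, occurred in 8 of the 30 (26.7%), against 2.55% of all genes and 2.25% of all windows. It was in 2 of 25 other lysosomal hydrolases (8%) and in 2 of 16 V-ATPase subunits (12.5%). The lines below show the stretch before the transcription start that holds this longer form in each of the 8 promoters, with the motif in capitals. All read from 5′ to 3′ on the strand of the gene, and in Ctsd and Lamp1 the motif lies on the other strand, so that its reverse complement is in capitals.
Ctsd: tccccCACGTGACctgtatccagt
Lgmn: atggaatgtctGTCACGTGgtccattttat
Naglu: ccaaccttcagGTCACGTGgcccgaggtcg
Ctsa: atgagcaaactGTCACGTGatgcag
Gla: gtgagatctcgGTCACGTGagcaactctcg
Mcoln1: gggtcgcgcttGTCACGTGttcagttcagg
Lamp1: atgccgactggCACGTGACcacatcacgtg
Glb1: gctgcttctgaGTCACGTGgcctacagagg

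These stretches lie at chr7:142388054-142388077 for Ctsd, chr12:102439125-102439154 for Lgmn and chrX:134601183-134601212 for Gla, all on the minus strand. On the plus strand they lie at chr11:101070008-101070037 for Naglu, chr2:164833748-164833772 for Ctsa, chr8:3500435-3500464 for Mcoln1, chr8:13159122-13159151 for Lamp1 and chr9:114401017-114401046 for Glb1. The first base of the motif was 14 (Ctsa) to 245 (Ctsd) bases before the transcription start. The 8 genes with this motif had log2 fold changes of -0.09 to 0.18 (median 0.08, 7 above 0), and the 22 without it of -0.36 to 0.87 (median 0.05, 14 above 0). Neither Ctsk, Lipa nor Man2b1 was among the genes in whose windows these letters were found, and a match is a description of the sequence only.

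**Figure D3:**
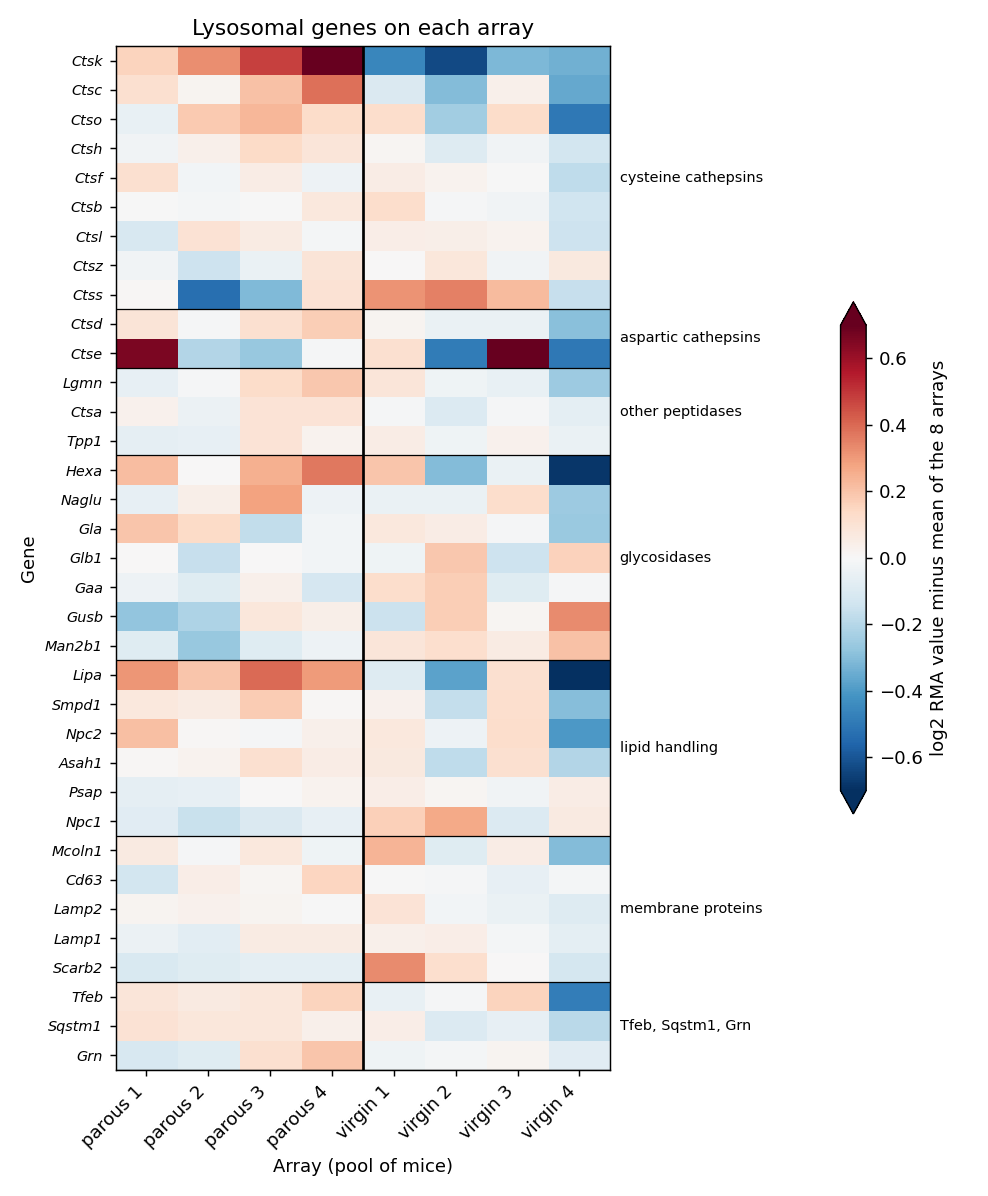
Log2 RMA value of each of the 35 genes (rows, grouped by role) on each array (columns, parous 1 to 4 at the left, virgin 1 to 4 at the right), as the difference from the mean of the gene over the 8 arrays. Virgin array 4 is the lowest array for 21 of the 35 genes, and all parous arrays are above all virgin arrays for Ctsk and Lipa and below them for Man2b1.

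Across the whole set, the arrays differed mainly through virgin array 4. It was the lowest of the 8 arrays for 21 of the 35 genes (60%), against 20.9% of all genes and 29.0% of the genes at least as bright as the dimmest of the 35. The mean of the 35 centred genes was 0.03, -0.03, 0.07 and 0.09 on parous arrays 1 to 4, against 0.05, -0.05, 0.03 and -0.19 on virgin arrays 1 to 4. Parous and virgin arrays overlapped in this mean, and only virgin array 4 lay far from the others. Without virgin arrays 2 and 4, 17 of the 35 log2 fold changes were above and 18 below 0, and 2 genes (Ctsk and Lipa) were higher and 1 (Ctss, log2 fold change -0.45) was lower at an unadjusted p under 0.05 (3.75% and 3.93% of all genes in the same fit), with none passing the criteria. Virgin array 4 was also the array with the highest proliferation mean and the lowest mean of several marker lists. These were macrophage (-0.29), endothelial (-0.67), T and NK cell (-0.63), plasma cell (-0.735), neutrophil (-0.40), adipocyte (-0.31) and luminal progenitor (-0.205). It was not the lowest in others, such as fibroblast (0.03). The part of these lists in its low lysosomal values was not tested.

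**Figure D4:**
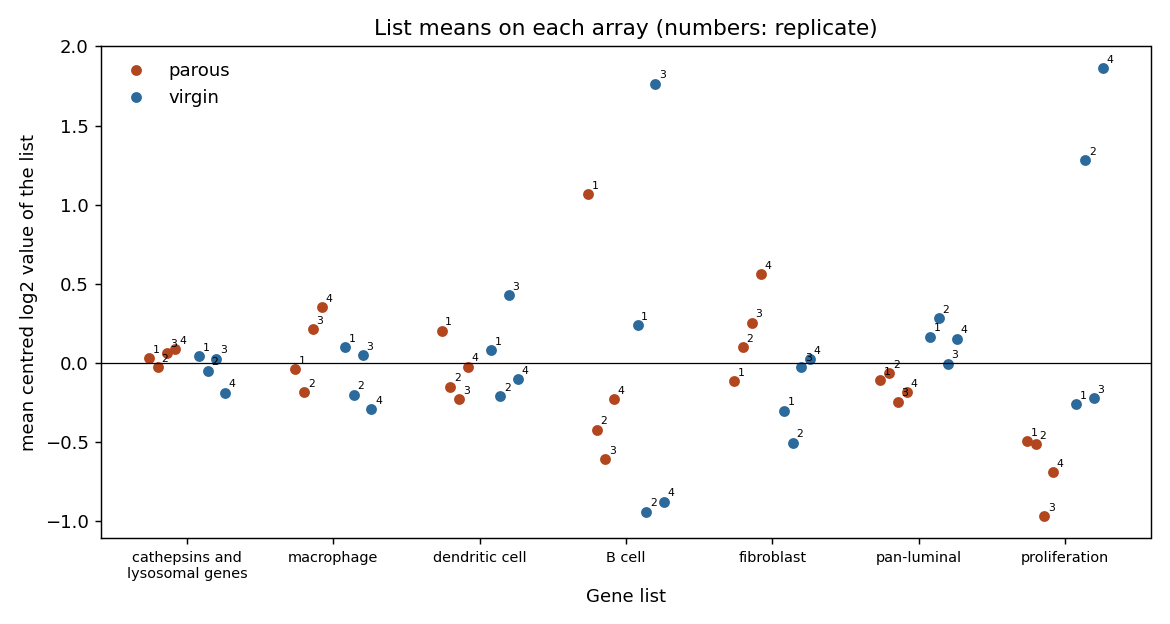
Mean of the 35 lysosomal genes and of 6 marker lists on each array, after the 8-array mean of each gene was subtracted (points labelled with the replicate number, parous left of virgin in each list). The lysosomal means lie between -0.19 and 0.09, with virgin array 4 lowest, while the proliferation means reach 1.28 and 1.86 on virgin arrays 2 and 4.

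None of the 190 measured genes in 9 further lists of lysosomal, autophagy and involution genes passed the criteria. This is close to the share over all genes, of which 0.181% were higher and 0.221% lower. Of 31 other lysosomal hydrolases, 25 had a log2 fold change above 0 (median 0.09), and at an unadjusted p under 0.05 there were 4 on the higher and 1 on the lower side, against 6.54% and 7.49% of all genes. The median was -0.02, with 15 of 31 above 0, without virgin arrays 2 and 4. The phospholipase Pla2g15 showed a log2 fold change of 0.46 (adjusted p = 0.371). Acp5, the tartrate-resistant phosphatase of osteoclasts and macrophages, showed one of -0.48 (adjusted p = 0.252). Pla2g15 was at 0.16 and Acp5 at -0.23 without virgin arrays 2 and 4. The 25 other membrane proteins had a median of 0.04, led by the macrophage protein Cd68 (0.28, adjusted p = 0.386) and the transporter Mfsd8 (0.27, adjusted p = 0.524).

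The 21 subunits of the V-ATPase, the proton pump that acidifies the lysosome, had a median of 0.00, and none was at an unadjusted p under 0.05. The extremes were Atp6v1c2 (-0.91, adjusted p = 0.603) and Atp6v1b1 (0.39), both subunits of restricted expression. Atp6v1b1 was at -0.07 without virgin arrays 2 and 4. Atp6v1c2 had log2 values of 6.73 to 7.40 on the parous arrays, against 7.10 and 6.55 on virgin arrays 1 and 3 and 8.90 and 9.10 on virgin arrays 2 and 4, without which its log2 fold change was 0.18. Of 18 genes for the sorting of lysosomal enzymes (median -0.03), Gnptab and Gnptg, which encode the subunits of the enzyme that makes the mannose 6-phosphate tag, both had log2 fold changes of 0.24 (adjusted p = 0.205 and 0.280). The 31 autophagy genes had a median of 0.04. At an unadjusted p under 0.05, 2 were on the higher and 1 on the lower side, against 6.54% and 7.49% of all genes. Among them, the mitophagy receptor Bnip3 was at 0.57 (adjusted p = 0.285) and Wipi2 at -0.25 (adjusted p = 0.511). Bnip3 was at 0.29 and Wipi2 at -0.10 without virgin arrays 2 and 4.

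The list of MiT/TFE factors and lysosomal mTORC1 components held 22 genes with a median of -0.01, of which 2 relatives of Tfeb differed most. Mitf had log2 values of 8.37, 8.65, 8.61 and 8.92 on parous arrays 1 to 4, against 7.91, 7.64, 8.17 and 7.80 on virgin arrays 1 to 4. Tfec had 6.70, 6.58, 6.61 and 6.72 on the parous arrays, against 6.41, 6.26, 6.13 and 5.75 on the virgin arrays. For both genes every parous array was above every virgin array, but neither passed the adjusted threshold (Mitf log2 fold change 0.76, adjusted p = 0.092; Tfec 0.52, adjusted p = 0.203). They were at 0.60 (adjusted p = 0.371) and 0.38 (adjusted p = 0.394) without virgin arrays 2 and 4. Tfe3, named here after its values had been seen, was at -0.10 (adjusted p = 0.718).

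A list of inhibitors of cathepsins and other proteases, mainly cystatins and serpins, had a median of -0.08 over 10 genes, with 4 above and 6 below 0. Its largest changes were those of Serpinb6a at 0.32 (adjusted p = 0.313) and Serpinb9 at 0.32 (adjusted p = 0.544). Serpinb6a was at 0.16 and Serpinb9 at 0.03 without virgin arrays 2 and 4. Of 8 other cathepsins, Ctsr and Ctsj, members of a mouse cluster of placental cathepsins that are closely alike in sequence, had log2 fold changes of 1.14 (adjusted p = 0.260) and 0.56 (adjusted p = 0.110), and signal shared between such copies cannot be told apart on these arrays. Ctsj lay below the median of every array (3.85 to 4.83), so that its fold change rests on weak signal. Ctsr lay below the array median on virgin array 4 (5.87). Without virgin arrays 2 and 4, Ctsr was at 1.03 (adjusted p = 0.406) and Ctsj at 0.54 (adjusted p = 0.355). Ctsw was the 1 of the 8 genes above the array median on every array.

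**Figure D5:**
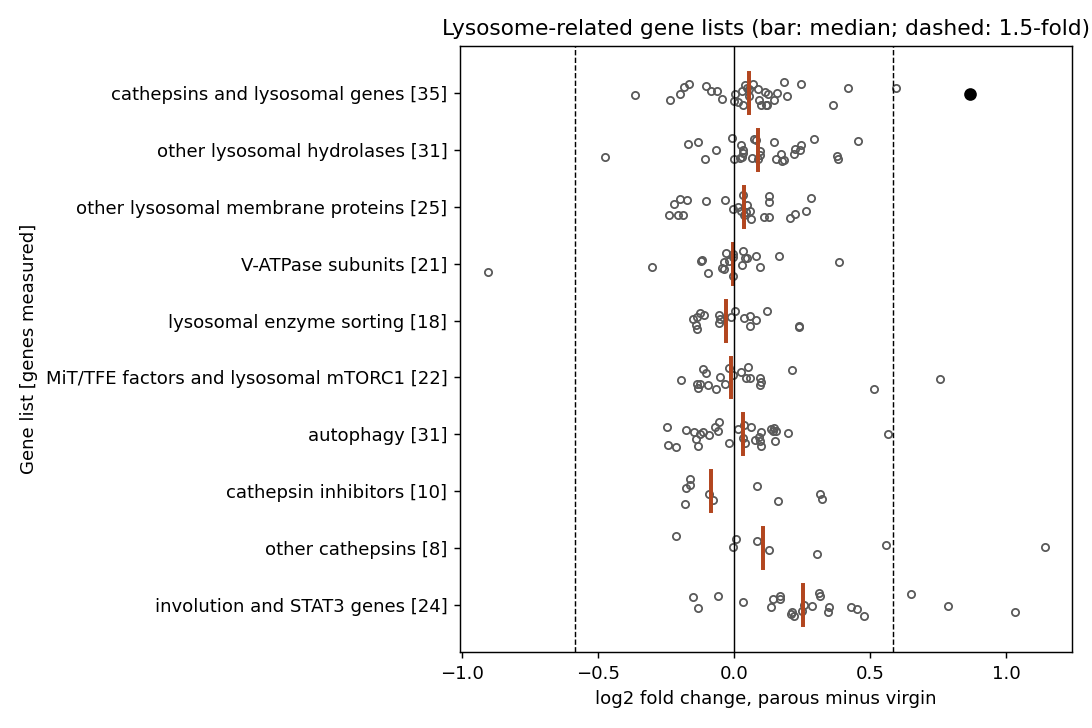
Log2 fold change, parous minus virgin, of every measured gene (points) in the 35 lysosomal genes and in 9 related lists, with the number of measured genes in brackets, the median of each list as a bar and a 1.5-fold change as dashed lines. Medians lie between -0.08 and 0.26, and Ctsk is the only filled point, the gene that passed the criteria.

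Of these lists, the one with the highest median was that of genes known from involution and STAT3 signalling in the mammary gland. Of 24 measured genes, 21 had a log2 fold change above 0, with a median of 0.26, and at an unadjusted p under 0.05 there were 9 on the higher and 0 on the lower side (6.54% and 7.49% of all genes), but none passed the criteria. Without virgin arrays 2 and 4 the median was 0.15, with 17 of 24 above 0 and 7 on the higher side (3.75% of all genes). Its largest differences were in the matrix proteases Mmp3 and Mmp11. Mmp3, stromelysin, had log2 values of 7.85, 8.68, 8.83 and 9.30 on parous arrays 1 to 4, against 7.53, 7.39, 7.82 and 7.78 on virgin arrays 1 to 4. Every parous array was above every virgin array, and array 1 was the lowest and array 4 the highest parous array, as for Ctsk (log2 fold change 1.03, adjusted p = 0.204). Mmp11, a stromal matrix metalloproteinase, had 7.99, 7.99, 8.67 and 8.18 on the parous arrays, against 7.59, 7.28, 7.62 and 7.20 on the virgin arrays (log2 fold change 0.79, adjusted p = 0.130). The centred mean of the list was 0.10 to 0.26 on the parous arrays and -0.39 to 0.02 on the virgin arrays, with virgin array 4 lowest. The fibroblast list given above also had a median above 0 (0.36), while the proliferation means were lower on the parous arrays, opposite to this list. On virgin array 4, where this list was lowest, the proliferation mean was highest (1.86). The fibroblast mean there (0.03) was the highest of the virgin arrays. The part of fibroblasts and proliferation in this list was not tested.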

How the data were processed

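RNA of 8 pools, amplified with an Ambion WT Expression kit, was hybridised to Affymetrix Mouse Gene 1.0 ST arrays. The deposited values are log2 intensities that the authors made with rma() of affy in R/Bioconductor (the methods give a Bioconductor release but no version of affy itself), which corrects background, quantile normalizes the arrays and summarizes the probes of each set. The number of arrays limits the precision. Probe sets were named through the annotation of the array and current gene symbols (21640 of 34760 named 1 gene). The probe set with the highest mean stood for a gene.

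All 34760 probe sets were fitted in R 4.3.3 with limma 3.58.1 (lmFit and eBayes, 2-sided, no covariate), with Benjamini-Hochberg adjustment over all of them, after a check on simulated data. The replicates are separate pools of 5 mice according to the labels. Exact 2-sided permutation tests covered single genes. The 35 genes, the 25 lists beside them (9 pathway and 16 marker lists) and the tests were chosen with earlier results of these data known. Marker lists of other cell types were neutrophil, T and NK cell, plasma cell, adipocyte, red blood cell, mast cell, luminal progenitor, hormone-sensing luminal and basal or myoepithelial, beside those in the report. Array values are given for genes that passed the criteria, had an unadjusted p under 0.05 or no overlap, for the 5 largest rises and falls, and for Ctsb, Ctsd, Ctsl, Lamp1, Lamp2 and Tfeb; other lists are represented by up to 2 genes of largest change. Promoter windows and motifs were read from RefSeq sequences (GRCm38.p6) in Python 3.11.15 with pandas 2.3.3. Alternatives were a replicate block, arrays left out, other scalings, array weights, eBayes with trend and robust estimation, the methods' t-test, filters and other criteria.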

Additional observations from a re-analysis of the deposited data

Results flagged for a closer look

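Among the 70 groups of 4 arrays (35 genes in 2 groups), 4 held an array whose gap to its nearest neighbour exceeded Dixon's critical value for 4 samples, and chance flags about 1 in 20 groups. The value of Ctsb on parous array 4 was 12.40, against 12.33 on the nearest parous array (gap over range 0.901). Ctsl was low on virgin array 4, at 12.00, with the nearest virgin array at 12.17 (0.878). Glb1 on parous array 2 had 9.34, with the nearest parous array at 9.49 (0.867). Cd63 was low on virgin array 3, at 10.94, with the nearest virgin array at 10.99 (0.847). The gaps of Ctsb and Cd63 are small on the log2 scale, and they were flagged because the other arrays of their groups lay close together.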

How the results depend on the processing

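Ctsk was counted as higher also with arrays centred on their medians, eBayes with trend and robust estimation, array weights, without dim probe sets, with only probe sets that name 1 gene, with the probe set of largest change, with no fold criterion and with a mean log2 value over 4. The count of higher genes was 0 with the replicate block (Ctsk 0.87, adjusted p = 0.073), without virgin arrays 2 and 4, with quantile normalization applied again (Ctsk 0.89, adjusted p = 0.063), with the methods' t-test (adjusted p = 0.171) and at a fold change over 2, and it ranged from 0 to 0 when each array was left out in turn. It was 2 (Ctsk and Lipa) at an unadjusted p with the fold criterion. The count of lower genes was 0 throughout. The cause of the lost call was not tested. Same-numbered arrays deviated together with r = 0.115, 0.183, -0.057 and 0.307. Parous arrays 2 and 4 correlated best with the virgin arrays of the same number, but parous array 1 correlated best with virgin array 3 and parous array 3 with virgin array 1. The numbers were therefore not taken to pair the pools. Each experiment of the study held mice of both groups, but the sources used here do not tie replicate numbers to experiments. These correlations cannot exclude that same-numbered pools came from the same experiment. Of 288 values of 16 named genes under 18 alternatives each, 259 kept direction and call, 12, all of Ctsk, lost the call, and 17 changed sign, in Ctso (0.25 over all arrays) and in 4 genes with a log2 fold change of 0.032 or less. These were, without virgin arrays 2 and 4, Ctso (-0.003), Lamp2 (-0.007), Ctsb (-0.034), Ctsl (-0.029) and Lamp1 (-0.008). With arrays centred on their medians they were Ctsl (-0.001) and Lamp1 (-0.015), and with array weights Ctsb (-0.005) and Lamp1 (-0.026). Leaving out each array in turn gave -0.015 to 0.073 for Ctsb, -0.031 to 0.056 for Ctsl and -0.021 to 0.026 for Lamp1. The gene lists without virgin arrays 2 and 4 were added after the data had been seen.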

Other observations

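Other cell types that an unsorted suspension can hold were followed through marker lists with the same fit. Plasma cell markers had a median log2 fold change of 0.93 over 8 genes, of which 3 passed the criteria as higher in parous suspensions. No gene of the other marker lists passed. Over all genes, 0.181% were higher and 0.221% lower by these criteria, so that none is common in lists this short. Pan-luminal markers had a median of -0.30 and none of 8 was above 0, and in these Krt19 (-0.48, adjusted p = 0.044) passed the adjusted p but not the fold criterion. Hormone-sensing luminal markers had a median of -0.78 over 6 genes, basal and myoepithelial markers -0.18 over 9, luminal progenitor markers 0.17 over 8 (Cd14 stands in the involution list too) and proliferation genes -1.35 over 14. Medians were 0.20 for 8 endothelial, 0.12 for 9 neutrophil, 0.18 for 11 T and NK cell and -0.23 for 7 B cell markers. They were 0.08 for 7 adipocyte, 0.14 for 6 mast cell and 0.14 for 2 red blood cell markers. The list medians changed when virgin arrays 2 and 4 were left out. They became -0.06 for endothelial, -0.08 for neutrophil, -0.42 for T and NK cell and -0.81 for B cell markers. Adipocyte markers were then at -0.01, mast cell at -0.10, red blood cell at 0.17 and plasma cell at 0.525. Pan-luminal markers were at -0.21, hormone-sensing luminal at -1.075, basal and myoepithelial at -0.25, luminal progenitor at 0 and proliferation genes at -0.43.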
